A study of Mus musculus with 8 samples.

Results

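The DNA replication genes described here are 53 genes of the replication machinery and its supply and control, chosen by name. All 53 had a row among the 12211 genes of the count table, and all 53 passed the filter on low counts, which 11909 genes passed. The study sequenced RNA from mouse embryonic fibroblasts, connective tissue cells cultured from embryos, in 4 control libraries (genotype label WT) and 4 libraries of PUS10KO cells (genotype label PUS10 KO). PUS10 belongs to the pseudouridine synthases, which modify uridines in RNA, tRNA included. Both genotypes were grown in the same serum-supplemented medium without a labelled treatment. The sources used here do not give embryo age, strain, passage, how the knockout was made, or whether the libraries of a genotype came from separate embryos or lines. The p-values therefore rest on the spread among these 8 libraries, which may be technical.

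A cell copies its genome once per division. The origin recognition complex marks start sites and, with Cdc6 and Cdt1, loads the MCM ring in G1. Cyclin E and its kinase, the kinase Cdc7, Mcm10, Cdc45 and the GINS complex then turn the ring into a moving helicase. Polymerase alpha and its primase start each strand, replication factor C places the PCNA clamp, polymerases delta and epsilon extend, RPA covers single strands, and Fen1, Dna2 and Lig1 join the lagging strand pieces. Many of these genes are textbook targets of the E2F transcription factors, which act late in G1, so their transcript level in a culture also follows how many cells are cycling. In a bulk sample, more cycling cells and more RNA per cell cannot be told apart.

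Libraries held 17561114 to 24563499 counts, and the lowest count of any member in any library was 34. Pus10 itself stood at 40.1 to 51.8 CPM (counts scaled to a common library size by TMM) in the control libraries and at 11.5 to 15.2 in the PUS10KO libraries, a log2 fold change of -1.74 (edgeR adjusted p = 0.000189), so the labels and the targeted gene go the same way. The Y-linked genes Eif2s3y, Kdm5d and Uty had at most 2 counts in any control library and at least 722 in every PUS10KO library, so genotype and the sex chromosomes of the cells cannot be told apart. The labels number the libraries 1 to 4 in each genotype, and libraries of the same number deviated together from their genotype's mean. Where 4 values are given for a genotype, they are libraries 1 to 4 in order. Values from a fit with this number as a block (the replicate block) therefore stand beside the fit without it. Control library 2 stood apart for these genes: it was the highest control library for 49 of 53 members (92.5%, against 25.1% of all genes tested), and its CPM was 1.53 times the mean of the other control libraries in the median member. Of 13 fibroblast markers, 13 were in the table, and their summed level was 20143 to 26101 CPM in the control libraries and 13380 to 20436 CPM in the PUS10KO libraries.

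Replication genes stood slightly higher in PUS10KO cells, and for most of them the difference was not called against the spread between libraries of a genotype. Of the 53 members, 46 had a positive and 7 a negative log2 fold change (PUS10KO against control), with a median of 0.27 and a range from -0.65 to 0.83. The median over all 11909 genes tested was 0.01. In the fit without the replicate block, 1 member rose (Rfc1) and 0 fell, at an adjusted p under 0.05 by edgeR's quasi-likelihood test. Over all genes tested, 5.9% rose and 7.11% fell. An unadjusted p under 0.05 was reached by 8 of the 53 members and by 3115 of the 11909 genes tested, a smaller share of the members. DESeq2 called 5 members higher (background 9.39%), and limma voom called 1 higher (background 6.01%). Neither of these tools called a member lower (background 10.5% and 6.93%). Without control library 2 the edgeR fit called 9 members higher (background 4.71%): Pold2, Cdc7, Rrm1, Rfc1, Pola1, Rfc5, Rfc3, Pole and Lig1. Without control library 1, control library 3, PUS10KO library 1 or PUS10KO library 2 it called 0 (background 5.23%, 4.32%, 4.95% and 4.56%).

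With the replicate block, 23 members rose (43.4%, background 19.1%), 2 fell (3.77%, background 19.9%) and 28 were not called. The genes that rose came from all 10 roles described below, and the genes that fell were Pole2 and Rrm2. Counted without any model, 31 members were higher in PUS10KO in all 4 same-numbered pairs (58.5%, background 28.4%) and 3 were lower in all 4 (5.66%, background 26.9%). Libraries of the genotypes did not overlap for 5 members, all of them higher in PUS10KO (9.43%, background 9.7%), a share near the background, and 0 were lower (background 10.6%). These shares over all genes tested, and those of the fit without the block, are also the background for the counts within each role below. The pairs differed in size: the median log2 difference over the 53 members was 0.61 in pair 1, 0.05 in pair 2, 0.16 in pair 3 and 0.26 in pair 4. Pair 1 held 49 members that were higher in PUS10KO, pair 2 held 34, pair 3 held 42 and pair 4 held 43.

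**Figure D1:**
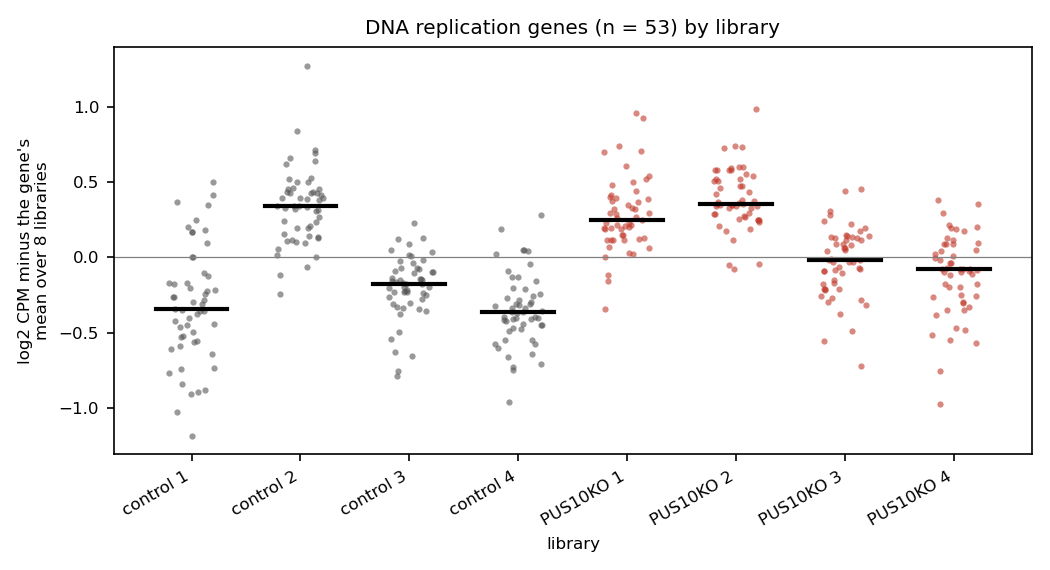
Each point is 1 of the 53 replication genes in 1 library, as its log2 CPM minus that gene's mean over the 8 libraries, and black bars are medians over the genes. Control library 2 stands above the other control libraries and level with PUS10KO libraries 1 and 2, while PUS10KO libraries 3 and 4 lie between these and the other control libraries.

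**Figure D2:**
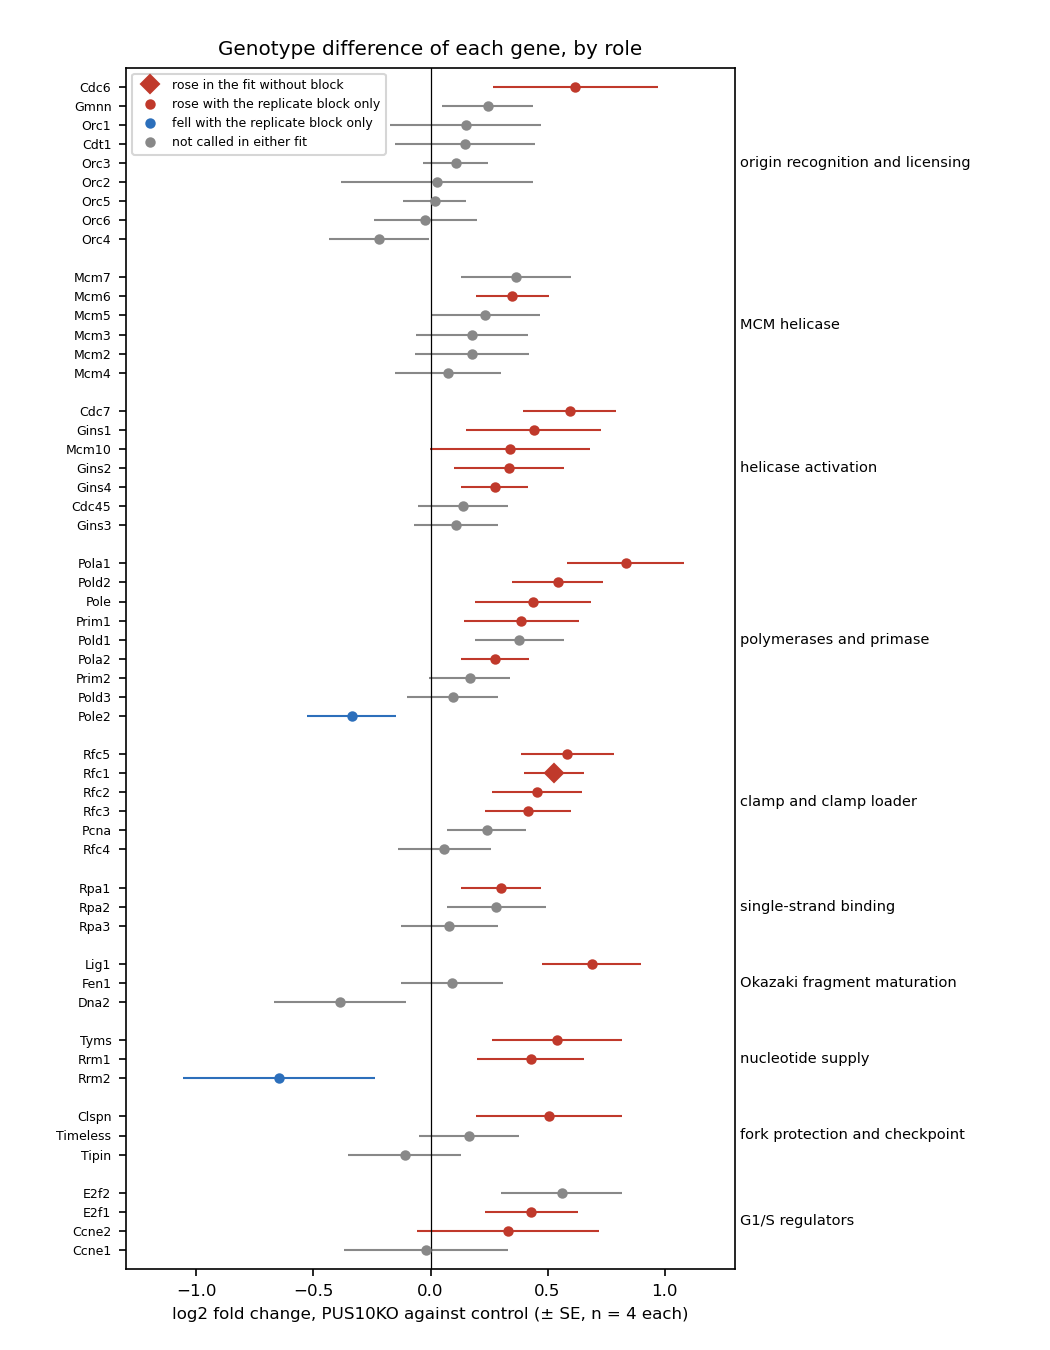
Log2 fold change of PUS10KO against control for each gene, grouped by role, with bars of 1 standard error from the fit without the replicate block (n = 4 libraries a genotype). Only Rfc1, the diamond, rose in that fit, and red and blue points mark genes that rose or fell with the block.

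The upstream sequences of these genes were searched for E2F motifs, since E2F factors are known regulators of this gene group. The RefSeq promoter table (GRCm38.p6, 250 bases before to 50 after each start) held 43 of the 53 members, some with several starts. In 42 of their 53 promoter windows the 40 bases after the start lay in a GENCODE transcript. The other starts lack that match, so a motif may be missed or misplaced there. An E2F motif (TTTCCCGC, TTTGGCGC, TTTCGCGC or TTTGCCGC, on either strand, overlaps allowed) lay in a promoter of 17 of these 43 members (39.5%), of 460 of 9512 genes tested (4.84%) and of 704 of all 27025 genes in the table (2.6%). The CCAAT box (CCAAT) lay in 58.1% of the 43 members and 43.6% of the genes tested, and the CHR element (TTTGAA or TTTAAA) in 25.6% and 22.7%. In 9 of the 43 members an E2F motif lay wholly before the start: Cdc6, Gins3, Mcm5, Mcm6, Mcm7, Orc1, Orc3, Pola1 and Rfc3. Pola1, Mcm6 and Rfc3 are shown because they are among the genes with the lowest p and rose with the replicate block. Lig1 has its motif after the start and is not shown, and Rfc1 has no such motif in this window. The sequences read 5′ to 3′ on the gene's strand and end at the base before the start, with E2F motifs in capitals. The Pola1 stretch is chrX:93632156-93632405, the Mcm6 stretch chr1:128359706-128359955, and the Rfc3 stretch, only its last 30 bases, chr5:151651209-151651238, all on the minus strand. GENCODE starts Rfc3 further upstream than RefSeq, at 151651242, so the Rfc3 stretch lies within an exon of that annotation. It starts Mcm6 further downstream than RefSeq, at 128359664, so the distances given below for Mcm6 hold for the RefSeq start only.
Pola1: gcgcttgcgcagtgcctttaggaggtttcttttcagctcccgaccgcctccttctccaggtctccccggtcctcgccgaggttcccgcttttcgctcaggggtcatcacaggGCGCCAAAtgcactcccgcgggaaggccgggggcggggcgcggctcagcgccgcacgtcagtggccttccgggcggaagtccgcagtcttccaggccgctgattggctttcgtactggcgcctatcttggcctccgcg
Mcm6: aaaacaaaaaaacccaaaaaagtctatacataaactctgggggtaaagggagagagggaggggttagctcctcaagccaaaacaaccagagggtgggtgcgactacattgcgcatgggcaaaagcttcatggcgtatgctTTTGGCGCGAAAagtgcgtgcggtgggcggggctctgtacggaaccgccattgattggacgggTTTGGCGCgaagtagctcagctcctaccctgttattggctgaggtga
Rfc3: ccggaagtgacgtcgcacgcTTTCGCGCtc
The Pola1 motif begins 138 bases before the start and lies on the other strand. Mcm6 holds 3 motifs, of which those beginning 110 and 106 bases before the start overlap on opposite strands and the other begins at 47. The Rfc3 motif begins 10 bases before the start. The 17 members with a motif had a median log2 fold change of 0.35, and with the replicate block 6 of the 17 rose and 1 fell. The 26 without one had a median of 0.21, and 11 of the 26 rose and 1 fell. The 10 with no promoter entry had a median of 0.30, and 6 of the 10 rose. Over all genes tested 19.1% rose and 19.9% fell with the block. The share that rose was thus not higher with a motif in these windows than without one, and the difference between the medians was not tested. The split rests on these windows, whose starts were not all matched by GENCODE. In control library 2 the CPM was 1.53 times the mean of the other control libraries in the median gene with a motif and 1.54 times in the median gene without one.

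Origin recognition and licensing held 9 genes (Orc1 to Orc6, Cdc6, Cdt1 and Gmnn, whose product geminin holds Cdt1 in check). The fit without the block called 0 of them, with 0 at an unadjusted p under 0.05 and 0 by DESeq2 or voom, and their median log2 fold change was 0.11. Cdc6, a loader of the MCM ring, had the lowest p of this role, with 63.4, 75.1, 35.1 and 30.5 CPM in the control and 115, 88.6, 56.8 and 52.5 CPM in the PUS10KO libraries. Libraries 1 and 2 were high and libraries 3 and 4 low in both genotypes, and the genotypes overlapped. Its mean was 51.0 ± 21.7 CPM (SD, n = 4) in control and 78.3 ± 29.4 CPM (SD, n = 4) in PUS10KO cells, a log2 fold change of 0.62 ± 0.35 (SE, edgeR adjusted p = 0.308). Within pairs Cdc6 was 0.24 to 0.86 higher on the log2 scale, and with the replicate block it rose (edgeR adjusted p = 0.0030), the only gene of this role to do so. Orc2, a subunit of the recognition complex named after its values were seen, showed the split by number without a genotype difference. It stood at 128, 139, 58.7 and 65.5 CPM in the control and at 148, 136, 61.8 and 53.6 CPM in the PUS10KO libraries, a log2 fold change of 0.03 (95% interval -0.90 to 0.96). The other members ranged from -0.22 (Orc4) to 0.25 (Gmnn).

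The MCM helicase genes Mcm2 to Mcm7 encode the subunits of the ring that opens the double helix. All 6 had positive log2 fold changes, from 0.08 (Mcm4) to 0.37 (Mcm7), and the fit without the block called 0 of them, with 0 at an unadjusted p under 0.05 and 0 by DESeq2 or voom. Mcm6, whose upstream sequence is shown above, stood at 309, 394, 315 and 290 CPM in the control and at 473, 472, 358 and 362 CPM in the PUS10KO libraries. Control library 2 passed PUS10KO libraries 3 and 4, so the genotypes overlapped. The means were 327 ± 45.9 and 416 ± 65.0 CPM (SD, n = 4 each), and the log2 fold change was 0.35 ± 0.16 (SE, edgeR adjusted p = 0.195). Mcm6 alone of the 6 rose with the replicate block (edgeR adjusted p = 0.0181). Mcm2, Mcm3 and Mcm4 showed a difference mostly in pair 1, at 0.71, 0.52 and 0.35 on the log2 scale, with -0.09 to 0.19 in the other pairs.

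Helicase activation held 7 genes, Cdc7, Mcm10, Cdc45 and Gins1 to Gins4. All 7 log2 fold changes were positive, with a median of 0.34. The fit without the block called 0, with 1 at an unadjusted p under 0.05; DESeq2 called that gene, Cdc7, and voom called 0. Cdc7, the kinase that fires licensed origins, stood at 13.4, 20.5, 14.5 and 12.4 CPM in the control and at 25.6, 23.5, 25.2 and 17.4 CPM in the PUS10KO libraries. Only control library 2 passed the lowest PUS10KO library. The means were 15.2 ± 3.62 and 22.9 ± 3.78 CPM (SD, n = 4 each), a log2 fold change of 0.59 ± 0.20 (SE, edgeR adjusted p = 0.0909). With the replicate block 5 of the 7 rose (over all genes 19.1%): Cdc7 (edgeR adjusted p = 0.00952), Gins1, Gins2, Gins4 and Mcm10. Cdc45, at 0.14, and Gins3, at 0.11, were not called in either fit. Dbf4, the activating partner of Cdc7 from the list of other replication factors and named after its values were seen, was not called in either fit, with a log2 fold change of -0.15 (95% interval -0.98 to 0.68).

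The polymerases and primase were represented by 9 genes, of which 8 had positive log2 fold changes (median 0.38). Without the block 0 were called, with 2 at an unadjusted p under 0.05, 1 by DESeq2 and 0 by voom. Pola1, the catalytic subunit of polymerase alpha, had the highest fold change of the 53 members, not measured from chromosome medians. It stood at 75.4, 147, 101 and 114 CPM in the control and at 174, 281, 172 and 151 CPM in the PUS10KO libraries, so that every PUS10KO library was above every control library. The gene spans chrX:93304767-93632155 on the minus strand (GRCm38). The means were 109 ± 29.8 and 194 ± 58.4 CPM (SD, n = 4 each), a log2 fold change of 0.83 ± 0.25 (SE, 95% interval 0.26 to 1.40, edgeR adjusted p = 0.0629). Without control library 2 the adjusted p was 0.0424, and with the replicate block it was 0.00128. Pola1 is X-linked, and genotype and the sex chromosomes of the cells cannot be told apart. Measured from the X chromosome's median of 0.20, its log2 fold change was 0.637 (edgeR adjusted p = 0.179, and 0.00575 with the replicate block). Prim1 stood at 0.641 from its own chromosome's median, so Pola1 was not the highest on that scale.

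Pold2, a subunit of polymerase delta, stood at 43.1, 82.5, 61.1 and 56.4 CPM in the control and at 82.2, 103, 79.8 and 88.6 CPM in the PUS10KO libraries. Control library 2 overlapped the PUS10KO libraries and the other control libraries did not. The log2 fold change was 0.54 ± 0.19 (SE, edgeR adjusted p = 0.112, and 0.00494 with the replicate block). Pold1, the catalytic subunit of polymerase delta, stood at 52.4, 89.0, 69.3 and 52.6 CPM in the control and at 96.6, 90.2, 77.1 and 78.6 CPM in the PUS10KO libraries. Pair 2 was level and pair 1 was 0.88 apart on the log2 scale. This gave a log2 fold change of 0.38 ± 0.19 (SE, edgeR adjusted p = 0.244, and 0.0513 with the replicate block). Pole, Prim1 and Pola2 also rose with the block, by 0.48, 0.40 and 0.28, so that 5 genes of this role rose (over all genes 19.1%). Pole2, the second subunit of polymerase epsilon, had the only negative fold change of this role, and was named after its values were seen. It too lies on chromosome 12, and measured from that median of -0.60 its log2 fold change was 0.27. It stood at 25.9, 35, 30.3 and 26.8 CPM in the control and at 23.9, 30.7, 21.4 and 17.4 CPM in the PUS10KO libraries. It was lower in PUS10KO in all 4 pairs, and its log2 fold change was -0.34 ± 0.19 (SE, edgeR adjusted p = 0.303, and 0.0372 with the replicate block).

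The clamp and clamp loader were the role with the highest median log2 fold change, 0.44 over 6 genes, not measured from chromosome medians. Of these, 1 rose without the block (over all genes tested 5.9%), and 4 had an unadjusted p under 0.05 (over all genes 3115 of 11909). For 3 the PUS10KO libraries lay above all control libraries (over all genes 9.7%), and 4 rose with the block (over all genes 19.1%). Rfc1, the large subunit of the clamp loader, stood at 104, 124, 106 and 116 CPM in the control and at 177, 182, 147 and 143 CPM in the PUS10KO libraries. The control libraries lay close together and below every PUS10KO library. The means were 113 ± 9.43 and 162 ± 20.2 CPM (SD, n = 4 each), a log2 fold change of 0.53 ± 0.13 (SE, 95% interval 0.24 to 0.81, edgeR adjusted p = 0.0258). The call was lost when control library 1, control library 3, PUS10KO library 1 or PUS10KO library 2 was left out, with an adjusted p of up to 0.0727 (range over the 8 such fits 0.0313 to 0.0727). The block gave an adjusted p of 0.0030. Rfc1 spans chr5:65261850-65335670 on the minus strand (GRCm38).

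Rfc5, a small subunit of the loader, stood at 29.3, 54.0, 44.6 and 37.8 CPM in the control and at 54.4, 75.7, 61.6 and 56.7 CPM in the PUS10KO libraries. The highest control library lay just under the lowest PUS10KO library. The fitted log2 fold change was 0.58 ± 0.20 (SE, edgeR adjusted p = 0.0917, and 0.00172 with the replicate block). Rfc2 stood at 37.6, 69.6, 70.1 and 63.4 CPM in the control and at 84.5, 87.9, 79.4 and 78.3 CPM in the PUS10KO libraries. Control library 1 was low, and the genotypes did not overlap. Its log2 fold change was 0.46 ± 0.19 (SE, edgeR adjusted p = 0.172, and 0.0372 with the replicate block). Rfc3 stood at 36.6, 63.8, 45.0 and 43.8 CPM in the control and at 64.5, 74.0, 58.3 and 55.5 CPM in the PUS10KO libraries. Only control library 2 overlapped the PUS10KO libraries. The log2 fold change was 0.42 ± 0.18 (SE, edgeR adjusted p = 0.190, and 0.0149 with the replicate block). The fourth small subunit, Rfc4, had a log2 fold change of 0.06 (95% interval -0.39 to 0.51). Rfc1, Rfc2, Rfc3 and Rfc5 lie on chromosome 5 and Rfc4 on chromosome 16, whose values are given below. Measured from its own chromosome's median, the log2 fold change was 0.35 for Rfc1, 0.27 for Rfc2, 0.24 for Rfc3 and 0.40 for Rfc5. For Rfc4 it was 0.24 and for Pcna 0.16 on that scale, so Rfc4 did not stand apart from Rfc2 and Rfc3 there. The rank of the roles was not computed on that scale.

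Pcna, the clamp itself, had the highest level per length of all members. It stood at 250, 354, 262 and 252 CPM in the control and at 377, 377, 287 and 281 CPM in the PUS10KO libraries. Control library 2 lay between the PUS10KO libraries. This gave a log2 fold change of 0.24 ± 0.17 (SE, 95% interval -0.14 to 0.62, edgeR adjusted p = 0.415, and 0.0902 with the replicate block), so it was not called in either fit.

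**Figure D3:**
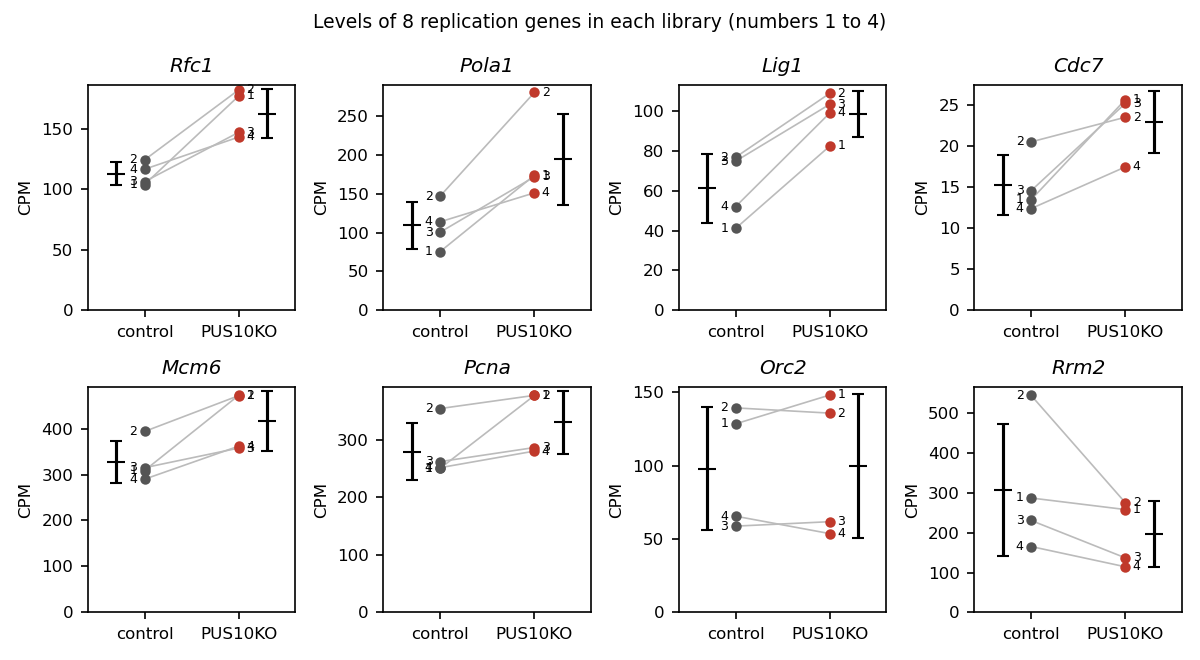
CPM of 8 replication genes in each library, with lines joining libraries of the same number and bars giving the mean ± SD of each genotype (n = 4); each axis starts at 0. Rfc1 and Pola1 show PUS10KO libraries above every control library, Orc2 parts by number rather than genotype, and Rrm2 is lower in PUS10KO in every pair.

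The 3 RPA genes, which encode the single-strand binding complex, had log2 fold changes of 0.30 (Rpa1), 0.28 (Rpa2) and 0.08 (Rpa3), and all 3 were higher in PUS10KO in all 4 pairs. Without the block 0 were called, with 0 at an unadjusted p under 0.05 and 0 by DESeq2 or voom. Rpa1, the largest subunit, stood at 285, 405, 314 and 272 CPM in the control and at 436, 449, 361 and 323 CPM in the PUS10KO libraries. Control library 2 overlapped the PUS10KO libraries. The edgeR adjusted p of Rpa1 was 0.307, and 0.0360 with the replicate block, where it rose.

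Of the 3 genes of Okazaki fragment maturation, Lig1 had the highest log2 fold change. Lig1, the ligase that seals the lagging strand, stood at 41.1, 76.9, 74.9 and 52.0 CPM in the control and at 82.6, 109, 104 and 99.2 CPM in the PUS10KO libraries. Every PUS10KO library was above every control library. The means were 61.2 ± 17.5 and 98.6 ± 11.4 CPM (SD, n = 4 each), a log2 fold change of 0.69 ± 0.21 (SE, edgeR adjusted p = 0.0656, and 0.00160 with the replicate block). The nuclease Fen1 had a log2 fold change of 0.09 (95% interval -0.40 to 0.59) and the nuclease Dna2 one of -0.39 (95% interval -1.02 to 0.25), and neither was called in either fit. Measured from the median of its own chromosome, the log2 fold change was 0.54 for Lig1, 0.21 for Fen1 and -0.13 for Dna2. The differences between these genes' fold changes were not tested.

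Nucleotide supply held the 2 subunits of ribonucleotide reductase, which makes deoxyribonucleotides, and thymidylate synthase. The reductase subunits had fold changes of opposite sign, but that of Rrm2 was -0.04 when measured from the median of its chromosome, 12, which was itself -0.60. Rrm1, the large subunit, stood at 414, 750, 459 and 389 CPM in the control and at 632, 830, 675 and 569 CPM in the PUS10KO libraries. The fitted log2 fold change was 0.43 ± 0.23 (SE, edgeR adjusted p = 0.278), and with the replicate block it rose (edgeR adjusted p = 0.00625). Control library 2 alone passed the lower PUS10KO libraries, and all 4 pairs were higher in PUS10KO. Rrm2, the small subunit made in S phase, stood at 287, 545, 231 and 166 CPM in the control and at 258, 275, 137 and 115 CPM in the PUS10KO libraries. Control library 2 was far above all other libraries, and every PUS10KO library was below the control library of its number. Its log2 fold change was -0.65 ± 0.41 (SE, edgeR adjusted p = 0.366), and with the replicate block it fell (edgeR adjusted p = 0.00729). Both Rrm genes were named after their values were seen. Tyms, thymidylate synthase, stood at 45.8, 130, 89.1 and 93.4 CPM in the control and at 113, 157, 118 and 133 CPM in the PUS10KO libraries. Control library 1 was low, and control library 2 overlapped the PUS10KO libraries. The log2 fold change was 0.54 ± 0.28 (SE, edgeR adjusted p = 0.259, and 0.0162 with the replicate block).

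Clspn, which relays stalled forks to the checkpoint kinase, had the lowest p of the 3 fork protection genes. It stood at 29.6, 53.2, 25.8 and 23.8 CPM in the control and at 57.2, 62.1, 37.2 and 31.3 CPM in the PUS10KO libraries. Libraries 3 and 4 were low in both genotypes. This gave a log2 fold change of 0.50 ± 0.31 (SE, edgeR adjusted p = 0.349, and 0.0109 with the replicate block). Its fork partners Timeless, at 0.16, and Tipin, at -0.11, were not called in either fit.

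The 4 G1/S regulators were the activators E2f1 and E2f2 and the cyclins Ccne1 and Ccne2. E2f1 stood at 17.9, 22.9, 18.9 and 13.4 CPM in the control and at 29.9, 26.6, 22.2 and 19.8 CPM in the PUS10KO libraries. The genotypes overlapped, and all 4 pairs were higher in PUS10KO. The fitted log2 fold change was 0.43 ± 0.20 (SE, edgeR adjusted p = 0.210), and with the replicate block it rose (edgeR adjusted p = 0.0215). E2f2, the member with the lowest level, stood at 1.70, 2.08, 1.85 and 1.63 CPM in the control and at 3.64, 2.59, 2.03 and 2.49 CPM in the PUS10KO libraries. Only PUS10KO library 3 overlapped the control libraries. Its log2 fold change was 0.56 ± 0.26 (SE, edgeR adjusted p = 0.210, and 0.0893 with the replicate block). The cyclin E genes parted by number: Ccne2 stood at 112 and 120 CPM in control libraries 1 and 2 and at 50.3 and 53.1 CPM in control libraries 3 and 4, and Ccne1 at 49.1 and 69.9 against 37.7 and 28.4 CPM. Ccne2 rose with the block, by 0.34, while Ccne1, at -0.02, was not called.

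Levels between genes were compared per length, as CPM per kilobase of exon (RPKM). The median member stood at 14.7 RPKM in control cells. Pcna was highest, at 117 ± 20.9 RPKM (SD, n = 4) in control and 138 ± 22.6 RPKM (SD, n = 4) in PUS10KO cells. Rrm2 followed at 111 ± 60.0 RPKM in control cells, and then Mcm6 at 70.0 ± 9.83, Mcm5 at 67.1 ± 20.2 and Mcm4 at 65.5 ± 16.7 RPKM (SD, n = 4 each). Apart from Rrm2 and Mcm6, these neighbours in the order lay within each other's spread, Pcna and Rrm2 as well. Mcm6 lay within the wide spread of Rrm2, but Rrm2 lay above that of Mcm6. Orc1, Dna2 and E2f2 were the lowest, at 3.54 ± 1.55, 1.87 ± 0.695 and 0.372 ± 0.0408 RPKM in control cells (SD, n = 4 each), where E2f2 lay clear of Dna2.

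Libraries of one genotype also differed from each other for these genes. The folds given next are ranges over 4 libraries, a measure unlike a difference between genotype means, so they are not set against the genotype fold changes. Across the 4 control libraries the median member differed 1.84-fold between its highest and lowest library, and across the PUS10KO libraries 1.47-fold. Number 2 was highest in both genotypes for 31 of the 53 members (58.5%, against 14.4% of all genes tested). In PUS10KO cells library 2 was highest for 33 members and library 1 for 16, whereas in control cells library 1 was highest for 1 and lowest for 24. For 10 members (18.9%, against 12.9% of all genes tested) all 4 libraries numbered 1 and 2 stood above all 4 numbered 3 and 4: Orc1, Orc2, Orc6, Cdc6, Mcm3, Mcm4, Rrm2, Tipin, Ccne1 and Ccne2. They include 4 of the 9 licensing genes and both cyclin E genes.

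The 25 genes of G2 and mitosis (cyclin B, Aurora kinases, kinetochore genes) moved with the numbers in another way. Number 1 was the lowest library for 25 of 25 of them in both genotypes, and number 2 the highest for 24 of 25 in both. Their median level was 4.76 log2 CPM in control library 1 and 6.54 to 7.39 in control libraries 2 to 4, and 5.60 in PUS10KO library 1 and 6.48 to 7.33 in PUS10KO libraries 2 to 4. Over the replication genes the control medians were 5.62, 6.35, 5.82 and 5.72 log2 CPM and the PUS10KO medians 6.37, 6.50, 6.03 and 5.98 log2 CPM. Library 1 thus had the lowest replication median of the control libraries and, after library 2, the highest of the PUS10KO libraries, while the mitotic genes were lowest in both. Pair 1 was 0.74 apart over the mitotic genes, against -0.05 to 0.05 in the other pairs, and it was also the pair with the widest difference over the replication genes. The part of the share of dividing cells in the genotype difference was not tested. With both libraries numbered 1 left out and the block kept, 16 replication genes rose (background 18.5%) and 2 fell (background 18.7%).

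**Figure D4:**
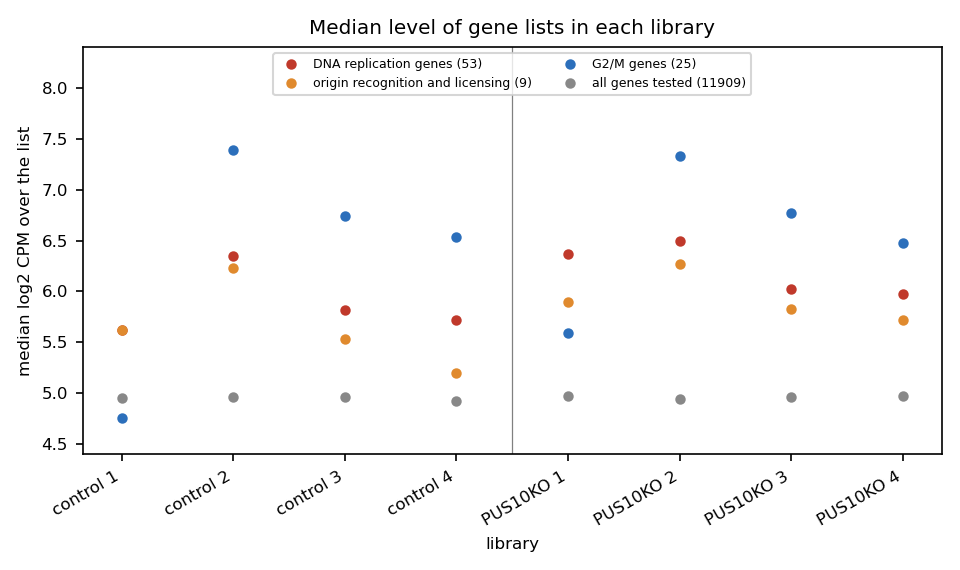
Median log2 CPM of gene lists in each library, for the 53 replication genes, their 9 origin and licensing genes, the 25 G2/M genes and all 11909 genes tested. The G2/M median is lowest in library 1 of both genotypes, the replication median is highest in library 2 of both, and the median of all genes is level; in control library 1 the replication and licensing points coincide at 5.62.

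Fold changes also differed by chromosome. The median log2 fold change of all tested genes was 0.18 on chromosome 5, -0.60 on chromosome 12, -0.25 on chromosome 10, -0.19 on chromosome 16 and 0.20 on the X chromosome. Chromosome 5 held 9 members (Rfc1, Rfc2, Rfc3, Rfc5, Cdc7, Tyms, Pole, Mcm7 and Orc5), of which 7 rose with the replicate block. Chromosome 12 held 2, Rrm2 and Pole2, the genes that fell with it. Measured from the median of its own chromosome, a difference set after the data were seen, Rfc1 had a log2 fold change of 0.35 (edgeR adjusted p = 0.147), so that its call was lost and no member rose (background 4.85%). Rrm2 had -0.04 and Pole2 0.27 on that scale, so neither was then lower beyond its chromosome. With the block and this centring 15 members rose (background 14.9%) and 0 fell (background 14.8%). Of these 15, 12 were among the 23 that rose without centring (Cdc6, Mcm6, Cdc7, Pola1, Pola2, Prim1, Pold2, Rfc1, Rfc5, Lig1, Rrm1 and Clspn), and Cdc45, Prim2 and Timeless came in. The median over the 53 members was 0.26 after centring, and 46 were positive. Why chromosomes differed was not tested.

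**Figure D5:**
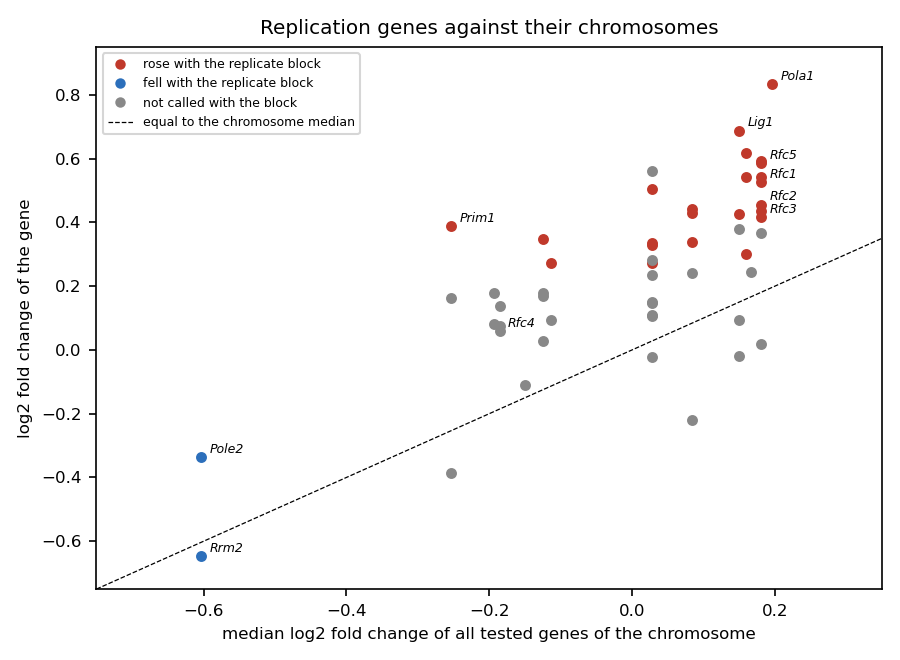
Log2 fold change of each replication gene (vertical axis) against the median log2 fold change of all tested genes on its chromosome (horizontal axis), with a dashed line where both are equal. Most points lie above the line, and Rrm2 and Pole2, the genes that fell with the replicate block, lie on chromosome 12 with a median of -0.60.

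The counting of overlapping genes bears on some members. Exons of 18 members overlap an exon of another annotated gene, and in 8 of them (Orc1, Orc2, Gins2, Rfc2, Rfc4, Rfc5, Fen1 and Ccne2) over 10% of the exon bases do so, on the opposite strand. Gins2 shares 67.3% of its exon bases with Gse1 and Fen1 84.2% with Tmem258 and Gm10143. The sources used here do not state the strand setting of the counts, so reads of these genes and their partners cannot be told apart.

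Other replication factors, other nucleotide synthesis genes and replication-coupled chromatin genes had median log2 fold changes of 0.23, 0.22 and 0.18. Of 27 other replication factors, 0 were called without the block (3 at an unadjusted p under 0.05, 2 by DESeq2, 1 by voom), and 13 rose and 0 fell with it, around a median log2 fold change of 0.23. The shares over all genes tested, for this list and the next ones, were 5.9% and 7.11% without the block and 19.1% and 19.9% with it. Dscc1, a subunit of the clamp loader variant that acts in cohesion, stood at 9.78 to 17.7 CPM in control and 21.3 to 27.0 CPM in PUS10KO libraries, with no overlap. The log2 fold change was 0.70 ± 0.20 (SE, edgeR adjusted p = 0.05003, just above the threshold, and 0.00277 with the replicate block). Pole3, a histone-fold subunit of polymerase epsilon, stood at 51.8 to 72.0 CPM in control and 75.8 to 91.6 CPM in PUS10KO libraries, a log2 fold change of 0.43 ± 0.13 (SE, edgeR adjusted p = 0.0660, and 0.00624 with the replicate block).

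Among 14 other nucleotide synthesis genes 0 were called without the block (3 at an unadjusted p under 0.05, 1 by DESeq2, 0 by voom), and 5 rose and 0 fell with it. Shmt1, which feeds one-carbon units to thymidylate synthesis, had a log2 fold change of 0.79 ± 0.28 (SE, edgeR adjusted p = 0.104, and 0.00141 with the replicate block). Dut, which removes dUTP, had 0.43 ± 0.17 (SE, edgeR adjusted p = 0.145, and 0.00579 with the replicate block). Among 15 genes of replication-coupled chromatin 0 were called without the block (1 at an unadjusted p under 0.05, 0 by DESeq2 or voom), and 5 rose and 0 fell with it. Slbp, the histone mRNA binding protein, had 0.36 ± 0.15 (SE, edgeR adjusted p = 0.174, and 0.00979 with the replicate block), and Tonsl, which reads new histones, 0.51 ± 0.25 (SE, edgeR adjusted p = 0.237, and 0.0135 with the replicate block).

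Of 14 S-phase checkpoint genes 1 rose without the block and 0 fell, and 4 rose and 1 fell with it. This list had 7 positive and 7 negative log2 fold changes, around a median of 0.03. The gene that rose was Brca2, which protects stalled forks. It stood at 16.2, 22.8, 15.5 and 14.7 CPM in the control and at 29.2, 32.3, 25.4 and 24.1 CPM in the PUS10KO libraries, with no overlap. This gave a log2 fold change of 0.68 ± 0.18 (SE, edgeR adjusted p = 0.0356). It lies on chromosome 5, and measured from that chromosome's median it was 0.50 (edgeR adjusted p = 0.132). Of the 25 G2/M genes 0 were called without the block (0 at an unadjusted p under 0.05, by DESeq2 or by voom), and 3 rose and 0 fell with it (over all genes 19.1% and 19.9%), around a median of 0.05. Ttk, a spindle checkpoint kinase, had 0.39 (95% interval -0.52 to 1.31) and Aurkb, an Aurora kinase, 0.32 (95% interval -0.67 to 1.31).

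Of the 31 G1/S control genes, 2 rose and 3 fell without the block (over all genes tested 5.9% and 7.11%), 8 rose and 4 fell with it (over all genes 19.1% and 19.9%), and the median was -0.01. Cdkn2b (p15), an inhibitor of the cyclin D kinases, stood at 45.0, 53.4, 96.3 and 112 CPM in the control and at 7.82, 5.65, 10.6 and 10.2 CPM in the PUS10KO libraries. All PUS10KO libraries lay far below all control libraries, and the log2 fold change was -3.16 ± 0.35 (SE, edgeR adjusted p = 0.000756). Ccnd2, cyclin D2, fell from 407 ± 66.8 to 181 ± 20.4 CPM (SD, n = 4 each), a log2 fold change of -1.17 ± 0.16 (SE, edgeR adjusted p = 0.00167). Cdkn1a (p21), an inhibitor of cyclin-dependent kinases that also binds PCNA, rose from 50.5 ± 9.48 to 116 ± 25 CPM (SD, n = 4 each), a log2 fold change of 1.19 ± 0.20 (SE, edgeR adjusted p = 0.00464). Cdkn1c (p57), an inhibitor of the same family, rose from 2.65 ± 0.922 to 10.2 ± 4.69 CPM (SD, n = 4 each), a log2 fold change of 1.94 ± 0.42 (SE, edgeR adjusted p = 0.0161). None of these 4 genes overlapped between the genotypes, and their fold changes exceeded those of every replication gene in size. The third gene that fell was E2f6, a repressor of the E2F family, at -1.12 ± 0.30 (SE, edgeR adjusted p = 0.0409), on chromosome 12 with its median of -0.60. Measured from that median it was -0.52 (edgeR adjusted p = 0.396).

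Markers of the cell type also differed between the genotypes. Of the 13 fibroblast markers 4 fell and 0 rose: Thy1, Col1a2, Vim and Pdgfrb. Vim was at 6763 ± 642 CPM in control and 4612 ± 219 CPM in PUS10KO cells (SD, n = 4 each), and so abundant in both, whereas Thy1 was at 20.8 to 23.0 CPM in control libraries and 0 to 0.0551 CPM in PUS10KO libraries. Summed levels of other cell types' markers lay far below those of the fibroblast markers, but not all were low. In control library 1 neural markers reached 240 CPM. Skeletal muscle markers stood at 152 CPM there, against 9.96 to 44.4 CPM in the other control libraries. Of 7 endothelial markers 2 were in the table, at 2.52 to 4.92 CPM in control and 1.19 to 3.12 CPM in PUS10KO libraries. Of 8 leukocyte markers 4 were in the table, at 7.55 to 12.4 and 13.8 to 20.2 CPM. Of these 4, Cd14 rose and the other 3 had negative log2 fold changes, with a median of -0.36 over the 4. Pecam1, Cdh5, Ptprc and Adgre1, which define those types, and all 7 epithelial markers had no row. Skeletal muscle markers (2 of 6) summed to 9.96 to 152 CPM in control and 1.43 to 3.36 CPM in PUS10KO libraries, neural markers (3 of 6) to 165 to 240 and 66.6 to 94.5 CPM, and adipocyte markers (3 of 5) to 47.7 to 85.1 and 31.3 to 43.2 CPM. The part of these differences in the replication genes' levels was not tested.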

How the data were processed

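RNA of 4 control and 4 PUS10KO libraries was prepared as stranded total RNA and sequenced in pairs of reads, per the labels' protocols. The authors deposited whole-number counts per gene, not normalized, and a normalized table whose values are by their range on a log2 scale, which no source used here states; for each of 12211 genes its control and PUS10KO values of a number add up to 1 constant (tolerance 1e-06), which leaves no difference between numbers in it. Tools in the submitters' processing notes are STAR 2.7.8a and DESeq2, and the build is mm10. The counter, its strand setting and the annotation were not given in the sources used here.

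The members and gene lists were chosen with earlier results of these data known. Counts went through edgeR 4.0.16 in R 4.3.3 (filterByExpr, TMM, robust quasi-likelihood test, Benjamini-Hochberg over 11909 genes, threshold 0.05), with limma 3.58.1 and DESeq2 1.42.0 as alternatives. "Rose" and "fell" mean an adjusted p under that threshold. CPM used TMM-scaled totals, RPKM the union of exons in GENCODE M21 (GRCm38, the assembly of mm10), and promoters came from RefSeq. Libraries of a genotype all differed beyond counting noise (chi-square over its degrees of freedom at least 18.22). Same-numbered libraries were taken as pairs because their deviations from the genotype means correlated (r = 0.681, 0.722, 0.633 and 0.687 over 11909 genes, which are not independent). Each of the 8 libraries correlated best with its own number. Between unlike numbers, r reached 0.303, 0.0416, 0.582 and 0.503 for numbers 1 to 4 in order. The match was thus less distinct for numbers 3 and 4 than for 1 and 2. The labels do not say what a number shares. Named are members called without the block and those with the lowest p up to 12, the lowest p of each other role, the highest and lowest per length, and up to 4 called (or else the 2 with lowest p) of each context list. Counts from overlapping or near-identical genes are uncertain.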

Additional observations from a re-analysis of the deposited data

Results flagged for a closer look

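Within each genotype of 4 libraries, a library was singled out where its gap to the nearest other library exceeded Dixon's 95% limit on the log2 CPM scale. This held for 6 of 106 gene and genotype groups, and chance gives about 1 in 20. Control library 2 was high for Prim1, the primase catalytic subunit, at 6.59 against 5.74 to 5.81 log2 CPM, for Pcna, at 8.47 against 7.97 to 8.04, and for Timeless, at 5.80 against 4.94 to 5.05. Control library 1 was low for Rfc2, at 5.24 against 5.99 to 6.13 log2 CPM, and for Rpa3, at 4.01 against 4.71 to 4.80. PUS10KO library 2 was high for Gins1, at 5.35 against 4.64 to 4.75 log2 CPM.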

How the results depend on the processing

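The members' median log2 fold change stayed positive in all settings, from 0.17 without PUS10KO library 2 to 0.45 without control library 2 when 1 library was left out. The number of members called higher was 1 and moved with the replicate block to 23 (2 lower), with the authors' deposited normalized values in limma with the block to 23 (2 lower), and with DESeq2 to 5. Leaving out 1 library gave 0 to 9. DESeq2 size factors, upper-quartile scaling, voom and no filter on low counts left it at 1. Of the alternatives added after seeing the data, centring on the chromosome median gave 0 higher, and 15 with the replicate block. Leaving out both libraries of a number gave 0 higher for numbers 1, 2, 3 and 4 alike; with the replicate block it gave 16, 18, 11 and 11 higher (over all genes 18.5%, 12.8%, 12.8% and 14.8%) and 2, 1, 1 and 1 lower (over all genes 18.7%, 13.5%, 14.8% and 16.7%). No member's called direction reversed. The cause of these changes was not tested, except that fits with fewer libraries have less power by construction. E2f2, at 34 counts in its lowest library, is the member most limited by depth.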
